A study of Mus musculus with 12 samples.

Results

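The non-cardiomyocyte (NonCM) fraction of the mouse heart was compared between Wls fl/fl and control hearts. The fraction held RNA of interstitial cells and of cardiomyocytes. Its libraries were chosen by the fraction and genotype in the labels, which gave 6 of the 12 libraries of the series, 3 per genotype. Its genes were chosen by level, as those with a mean value of 10 or more over the 6 libraries, which kept 13271 of 46983 symbols. Of the others, 17974 had no read and 15738 had reads but a lower mean. The level rule does not use genotype, and 192 genes had means from 10 to 11 (Gm38218 at 10.002 lay just inside) and 250 had means from 9 to 10 (Acrbp at 9.995 lay just outside).

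Control mice were MCM/+ and the other mice MCM/+ with both copies of Wls floxed, all of strain BL6/C57. MCM is the usual short name of a Cre recombinase flanked by estrogen receptor domains, which acts once tamoxifen is given. By the labels, mice of both groups therefore carried the Cre. All received tamoxifen in 3 doses from postnatal day 1 to day 3 and were infarcted on postnatal day 2. Tissue was taken 2 weeks after surgery, although the labels call the cells adult. No uninjured group, and none labelled as free of Cre, was analysed here, so the comparison is between genotypes within injured hearts. What promoter drives MCM is not stated in the labels or series text. The sources state 3 hearts per condition but do not tie hearts to libraries, so each p-value speaks of the spread among the libraries, and that may be technical.

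Interstitial cells of the heart include fibroblasts, which build the collagen matrix, blood vessel and lymphatic endothelium, pericytes and smooth muscle, epicardium, macrophages and other leukocytes. After an infarct, fibroblasts become activated and lay down scar, while recruited monocytes and macrophages clear dead tissue. Wls (Wntless) is the membrane protein that escorts lipid-modified Wnt ligands to the cell surface, so a cell without it releases little Wnt. The question is what this fraction expresses when the gene is targeted through MCM.

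Values are normalized read counts, that is, reads per gene divided by a size factor of each library. Recovered reads numbered 1160146, 8963762 and 9262307 in control replicates 1, 2 and 3, and 10281214, 9725690 and 8608352 in Wls fl/fl replicates 1, 2 and 3. In the shallow control replicate 1, 1 read equals a value of 5.54. Replicate 3 of each genotype lay within counting noise of a mixture of the other 2. Over 12311 genes, leaving out the 1% with the largest residuals, it differed from a weighted mean of replicates 1 and 2 by 1.012 (control) and 1.013 (Wls fl/fl) times the counting variance, whereas replicates 1 and 2 differed from each other by 1.80 and 2.12 times. Single genes departed from this, such as Gm29172 (0, 459 and 2.90 in the controls) and the ribosomal RNA gene mt-Rnr2 (8575, 9253 and 4669 in Wls fl/fl). Counts of calls are for this reason also given without replicate 3 of both genotypes.

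Markers of interstitial cells were present. Col1a1 (fibroblasts) had values from 10577 to 17742, Csf1r (macrophages) from 1541 to 2321 and Pecam1 (endothelium) from 1480 to 1820. Cardiomyocyte RNA was present too, with 30 of 30 mature cardiomyocyte markers past the minimum and none at 0, and these took 9.01 to 9.93% of normalized reads in controls and 7.80 to 8.10% in Wls fl/fl. As CPM (reads of a gene relative to all reads) over all 6 libraries of each fraction, Myh6 stood at 25126.5 here against 42125.6 in the cardiomyocyte fraction. Tnnt2 stood at 3632 against 6176 and Actc1 at 4396 against 7609, so cardiomyocyte RNA remained at a high level. All 6 libraries held reads of Y-linked genes, with Ddx3y from 583 to 710, and Xist between 0 and 7.32, and none of 4 tested sex-linked genes was called.

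The targeted gene was checked first. Wls (chr3:159839672-159938664, mm10) had values of 427, 374 and 407 in controls and 356, 323 and 316 in Wls fl/fl, so the groups did not overlap. The difference was -0.28 on the log2 scale (SE 0.08), a ratio of 0.82, and did not pass the limma test (adjusted p = 0.0831), although edgeR on the recovered reads gave an adjusted p of 0.0334. Reads were summed over the whole gene, and reads of an undeleted part of a floxed gene count as well. Wls itself read 243, 201 and 210 in controls and 91.6, 57.3 and 93.9 in Wls fl/fl in the cardiomyocyte fraction. Esr1 (chr10:4611593-5005614), the estrogen receptor alpha gene, stood out in the other direction. It had values of 88.7, 33.6 and 36.9 in controls and 797, 659 and 714 in Wls fl/fl, a mean ratio of 13.6 (log2 change 3.88, SE 0.30, limma adjusted p = 8.65e-04). In the cardiomyocyte fraction of the same study, Esr1 read 14.3, 33.3 and 19.5 in controls against 1686, 1298 and 1596 in Wls fl/fl. An MCM transgene contains estrogen receptor sequence, and both genotypes share the MCM/+ label. Whether the libraries labelled control came from MCM carriers was not tested. If MCM differed between the groups, that difference could not be told apart from Wls genotype in any comparison here. Transcripts of the transgene and of the endogenous gene cannot be told apart in these counts.

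Across all genes, the fraction changed widely but mostly by small amounts. The main test was limma on log2(value + 1), and a gene was called when its Benjamini-Hochberg adjusted p was under 0.05. Of 13271 genes, 598 (4.51%) were called, and 328 rose in Wls fl/fl (2.47%) and 270 fell (2.03%). edgeR on the recovered reads called 761 higher (5.73%) and 685 lower (5.16%), all 598 among them. Among limma's calls the median log2 change was 0.49 for the 328 that rose and -0.31 for the 270 that fell. A change of 1 or more was reached by 28 genes that rose and 2 that fell. Together the risen genes took 4.69% of all normalized reads in controls and 6.69% in Wls fl/fl, and the fallen genes took 15.3% and 12.7%. High expression marked the fallen genes, of which 151 had a mean value of 1000 or more, against 81 of the risen genes. The groups of 3 did not overlap in 1842 genes that were higher in Wls fl/fl (13.9%) and in 1670 that were lower (12.6%).

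The number of calls depended on which libraries were used and on the scaling. Without replicate 3 of both genotypes limma called no gene in either direction (lowest adjusted p = 0.147, with 1233 genes at an unadjusted p under 0.05), while edgeR called 27 genes (0.203%), 23 higher (0.173%) and 4 lower (0.0301%). All 598 called genes kept their sign in that edgeR fit. No fit left out replicate 1 or replicate 2 of both genotypes. The loss of replicate 3 therefore cannot be told apart from the loss of libraries as such. Leaving out control replicate 1 gave 872 higher and 749 lower, and leaving out control replicate 3 gave 100 and 19. When Wls fl/fl replicate 1, 2 or 3 was left out, 164, 83 or 64 genes were higher and 171, 18 or 9 were lower. Scaling each library to genes that are not higher in the cardiomyocyte fraction moved every change by -0.09 and gave 236 higher and 629 lower, so 27.3% of calls were higher in place of 54.8%. The read sum behind that scaling includes risen genes such as Col3a1 and Fn1, and libraries of both genotypes chose its genes. Calls under it are therefore not independent of those rises.

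**Figure D1:**
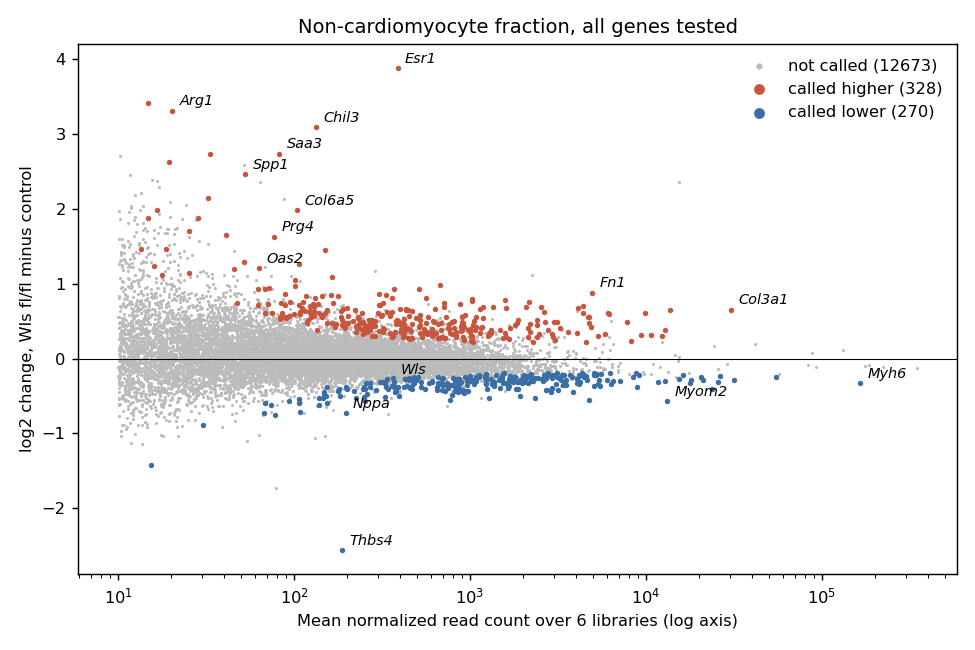
Mean normalized read count over the 6 libraries (log axis) against the log2 change, Wls fl/fl minus control, for 13271 genes. Red and blue points are the 328 genes called higher and the 270 called lower by limma, grey points are all others. Most calls lie within 1 log2 unit of 0, and Esr1 lies highest at 3.88.

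The calls that did not need replicate 3 included 3 resident fibroblast markers (Mfap5, Cd248 and Islr), 3 collagens (Col6a5, Col14a1 and Col16a1) and Fn1. edgeR on replicates 1 and 2 alone called 23 genes higher, of which 20 are named by rule, and 25 of its 27 calls in both directions were also called by limma on all libraries. Fibronectin (Fn1, chr1:71585520-71653200), a matrix glycoprotein on which other matrix proteins assemble, had values of 3520, 3364 and 3562 in controls and 6294, 6515 and 6449 in Wls fl/fl. No control library came near the lowest Wls fl/fl library, and the log2 change was 0.88 (SE 0.04, limma adjusted p = 9.81e-05, edgeR adjusted p = 0.0124 without replicate 3). Col6a5 (chr9:105856078-105960643), a collagen VI chain, had values of 55.4, 27.5 and 44.9 against 152, 180 and 163, a ratio of 3.88. Saa3 (chr7:46711998-46715700), an acute phase protein made at sites of inflammation, had values of 22.2, 16.0 and 23.2 against 191, 120 and 121, a ratio of 7.04. Both differences kept their call without replicate 3 (edgeR adjusted p = 0.0124 for each), and in the shallow control replicate 1 the Saa3 value stands for 4 reads.

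Further matrix genes in the same set were Mfap5, a microfibril protein, at 638, 671 and 668 against 1058, 1118 and 1115, and Fndc1, which rose from a control mean of 747 to 1292. Cd248 (endosialin, of stromal cells) read 222, 224 and 267 against 417, 441 and 425. Islr and Itih5 are secreted proteins of fibroblasts, with log2 changes of 0.69 and 0.69. Sema3c, a secreted guidance cue, changed by 0.75, and Aldh1a2, the retinoic acid synthesizing enzyme of epicardium, by 0.83. Prg4 (lubricin) changed by 1.63 and the chemokine Ccl6 by 0.92. Also in the set were Col14a1 and Col16a1, Hmcn2, Ssc5d, Lgals3bp, Dclk1 and Kcnn3, with log2 changes from 0.65 to 0.87.

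Thbs4, Nppa and Lrrc10 were the named genes that edgeR called lower without replicate 3. Thbs4 (chr13:92751590-92794818), thrombospondin 4, a matrix protein of stressed heart and tendon, had values of 327, 304 and 314 in controls and 24.2, 90.5 and 65.8 in Wls fl/fl. It fell by 2.56 on the log2 scale (SE 0.38, limma adjusted p = 0.0093), the largest fall among called genes, and the Wls fl/fl libraries themselves ran from 24.2 to 90.5. In the cardiomyocyte fraction, Thbs4 read 542, 396 and 438 in controls against 25.8, 45.8 and 15.5 in Wls fl/fl. Which cells account for the fall in the NonCM fraction was not tested. Nppa (chr4:148000722-148002079), the atrial natriuretic peptide, had values of 255, 252 and 228 against 153, 152 and 138. Lrrc10, a cardiomyocyte protein, had values of 909, 950 and 897 against 655, 590 and 632. The fourth gene, Gm29172, which the naming rule leaves out, read 459 in control replicate 2 and under 4 in every other library.

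**Figure D2:**
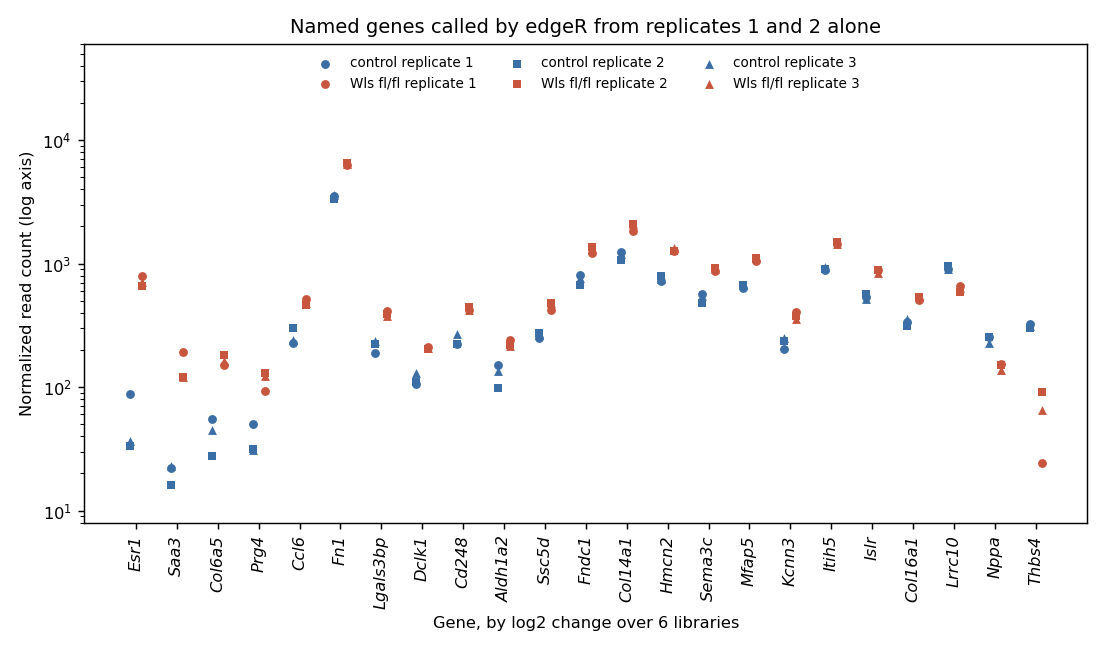
Normalized read counts (log axis) in each library for the 23 named genes that edgeR called without replicate 3, 20 higher and 3 lower. Circles, squares and triangles are replicates 1, 2 and 3, in blue for control and red for Wls fl/fl. The genotypes do not overlap in any of them, which is not a separate result because replicates 1 and 2 selected the genes. Esr1, Saa3 and Thbs4 are farthest apart.

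Resident fibroblast markers rose in good part. Among 24 tested markers of resident fibroblasts, 14 rose and none fell, with a median log2 change of 0.41 against 0.02 over all genes tested. All 24 were higher in Wls fl/fl by some amount, where 53.2% of all genes were, and 20 had groups that did not overlap. For this list and each one below, the shares over all genes were 2.47% risen, 2.03% fallen and 13.9% higher without overlap. edgeR called 3 of the 24 fibroblast markers without replicate 3, and the median of the 24 was 0.43 by limma without it. Tcf21, a transcription factor of fibroblasts, rose by 0.39, whereas Pdgfra, their PDGF receptor, read 2467, 3365 and 2698 against 3316, 3501 and 3508 and did not pass the test (limma adjusted p = 0.147). The summed resident fibroblast markers took 1.40 to 1.502% of normalized reads in controls and 1.97 to 2.07% in Wls fl/fl. Col1a1, Col1a2 and Col3a1 belong to this list and to the collagens below, so those results share genes. Col3a1 was the largest member, with means of 23591 in controls and 37089 in Wls fl/fl, followed by Gsn with 23117 and 25739. This share therefore does not measure fibroblasts apart from collagen genes. In bulk RNA, more cells of a type and more RNA per cell cannot be told apart, and the same holds for each cell type below.

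Collagens rose as a group. Of 25 tested chains, 17 rose and none fell, all 25 were higher, and the median log2 change was 0.59 (0.51 by limma without replicate 3, when edgeR called 3). Col3a1 (chr1:45311538-45349706), a fibrillar collagen of the interstitium, read 23582, 23570 and 23620 in controls and 35862, 38232 and 37171 in Wls fl/fl. The controls were nearly level and every Wls fl/fl library was far above them, with a log2 change of 0.65 (SE 0.05, limma adjusted p = 6.45e-04). Col1a1 read 10577, 10747 and 10584 against 15450, 17742 and 16816, and Col1a2 changed by 0.60. The basement membrane chains Col4a1 and Col4a2 rose by less, 0.30 and 0.24, and Col4a3 to Col4a6 were not called. In share of reads, collagens went from 1.31 to 1.35% in controls to 1.89 to 2.04% in Wls fl/fl.

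Other matrix genes rose too. Of 49 tested glycoproteins and proteoglycans, 26 rose and 1 (Thbs4) fell, with a median of 0.34, and edgeR called 2 higher and Thbs4 lower without replicate 3. Fbn1, the backbone of microfibrils, read 3703, 3013 and 3268 against 5336, 5351 and 5478. Bgn (biglycan) changed by 0.48 and Prelp by 0.34, while Dcn (decorin) read 9668, 12213 and 10857 against 13772, 13321 and 13032 and was not called (limma adjusted p = 0.0634). Of 22 enzymes that process or crosslink collagen, 7 rose and none fell. Loxl1 and Loxl2, lysyl oxidases that crosslink collagen and elastin, changed by 0.54 and 0.56, and Pcolce, an enhancer of procollagen cleavage, by 0.48. Of 22 matrix metalloproteases and inhibitors, 5 rose and none fell, among them the gelatinase Mmp2 (0.35), its activator Mmp14 (0.40), the inhibitors Timp2 (0.49) and Timp1 (1.47), and the macrophage elastase Mmp12 (1.70). None of the crosslinking or protease genes was called by edgeR without replicate 3.

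Activated fibroblast and myofibroblast genes rose in part. In a list of 24 tested genes, 9 rose and none fell, with a median of 0.40, and edgeR called Fn1 alone of them without replicate 3. Periostin (Postn), secreted by activated fibroblasts, read 2012, 1296 and 1598 in controls and 2444, 2948 and 2760 in Wls fl/fl, a log2 change of 0.75 (limma adjusted p = 0.0211). Tnc (tenascin C) rose by 0.72, and the secreted glycoprotein Fstl1 by 0.61. Spp1 (osteopontin) rose most in the list, from 16.6, 16.8 and 11.6 to 57.9, 125 and 88.2, and it is made by macrophages as well. Acta2, smooth muscle actin, read 1924, 2069 and 1996 in controls against 1519, 1780 and 1752 in Wls fl/fl (log2 change -0.25, limma adjusted p = 0.0730), and Tagln had a change of 0.10 (limma adjusted p = 0.721). Among 9 tested genes of late scar fibroblasts 1 rose and 2 fell, Thbs4 and Clu, with a median of 0.12, and edgeR called Thbs4 without replicate 3.

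Epicardial and mesothelial genes, of the layer that covers the heart, had a median log2 change of 0.56, with 4 of 23 tested genes risen and 1 fallen. Upk1b, a mesothelial uroplakin, read 27.7, 24.4 and 36.2 against 94.8, 59.9 and 67.3, highest in Wls fl/fl replicate 1. Aldh1a2 (0.83), Sema3d (0.68) and complement C3 (0.69) were the others that rose, and Clu (clusterin) fell by 0.29. The first markers of the list, Wt1 and Tbx18, had changes of 0.37 and 0.74 and were not called. edgeR called Aldh1a2 alone of the list without replicate 3.

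**Figure D3:**
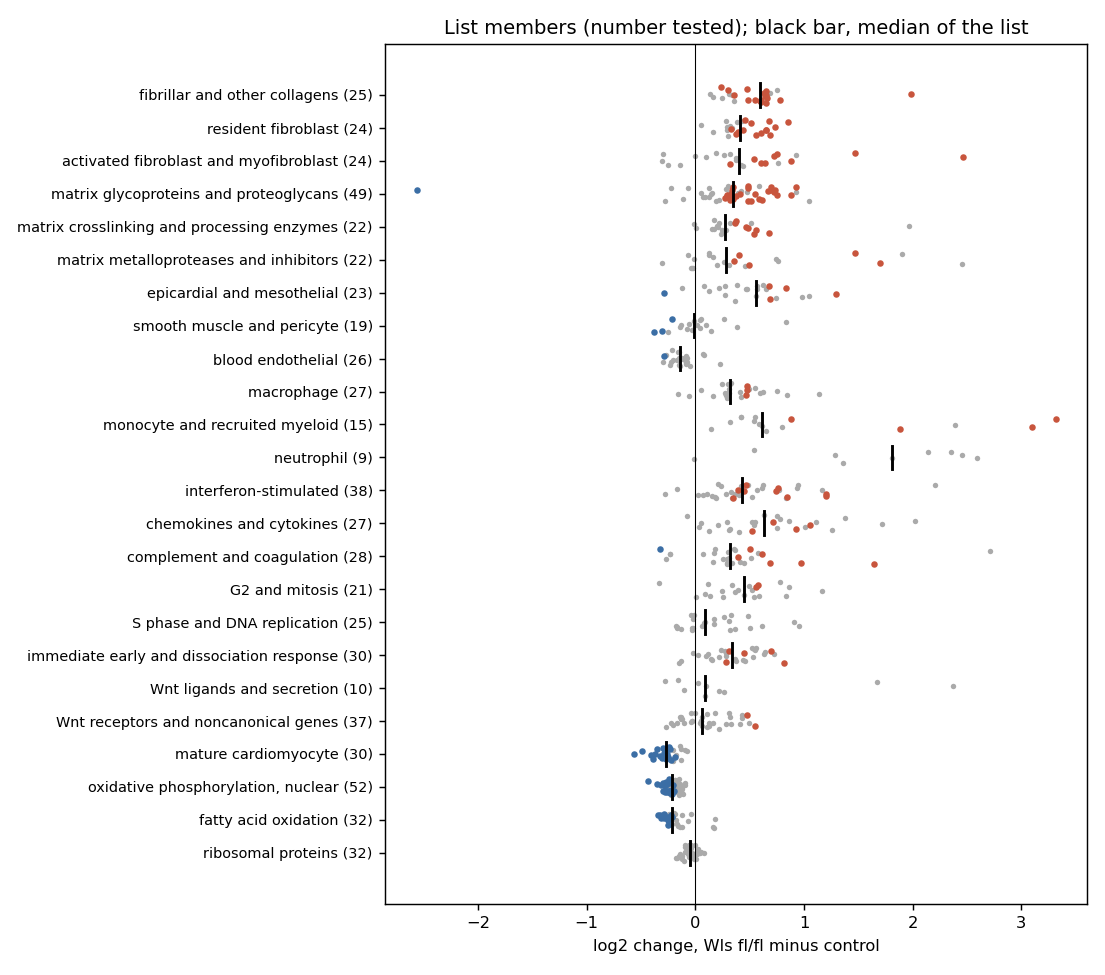
Log2 change, Wls fl/fl minus control, of every tested member of the gene lists, 1 row per list. Grey points were not called, red and blue points were called higher and lower by limma, and black bars are list medians. Collagen and fibroblast lists lie to the right of the all-gene median of 0.02, and cardiomyocyte and mitochondrial lists to its left.

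Vessel genes were called about as often as all genes (4.51%). Of 26 tested blood endothelial markers none rose and 1, Emcn (endomucin, of capillaries and veins), fell, with a median of -0.15, and 3 of 26 were higher. Pecam1 read 1619, 1820 and 1715 in controls and 1480, 1597 and 1586 in Wls fl/fl, ranges that do not overlap but are close (log2 change -0.14, limma adjusted p = 0.216). Cdh5, the junction cadherin of endothelium, and the VEGF receptor Kdr had changes of -0.15 and -0.08 and were not called. Without replicate 3, edgeR called none of the 26. With scaling to genes not higher in cardiomyocytes, 8 of the 26 were called lower. That scaling moved every change by -0.09 and rests on genes that include the risen collagens, so these calls are not separate support. The endothelial markers took 0.608 to 0.664% of normalized reads in controls and 0.576 to 0.581% in Wls fl/fl. In the lymphatic list of 9 tested genes, Prox1, a transcription factor of lymphatic endothelium, fell by 0.42. Prox1 was higher in the cardiomyocyte fraction (CPM 145.5 against 104.9), and Lyve1, the lymphatic hyaluronan receptor, had a change of 0.50 and was not called (limma adjusted p = 0.0579). In the endocardial list of 8 tested genes, Npr3, a natriuretic peptide clearance receptor, fell by 0.32. Neither Prox1 nor Npr3 was called by edgeR without replicate 3.

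Smooth muscle and pericyte genes, 19 tested, had a median of -0.01, with none risen and 3 fallen, and no call by edgeR without replicate 3. The 3 were Des (desmin, by 0.31), Myocd (myocardin, a muscle coactivator, by 0.38) and Abcc9 (a potassium channel subunit, by 0.22), and cardiomyocytes express all 3 of these. The pericyte markers Rgs5, Cspg4 and Pdgfrb had changes of 0.01, 0.04 and 0.05 and were not called.

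Part of the myeloid genes rose. Of 27 tested macrophage markers 3 rose and none fell, with a median of 0.32, and 25 of 27 were higher. Lyz2 (lysozyme) read 1452, 1640 and 1587 against 2142, 2182 and 2154, with the genotypes well apart (log2 change 0.47, SE 0.05, limma adjusted p = 0.0031). Cd68 and Ctss, lysosomal proteins, changed by 0.47 each. The macrophage growth factor receptor Csf1r read 1541, 2003 and 1921 against 2321, 2068 and 2183 and was not called (limma adjusted p = 0.147), nor was Adgre1 (F4/80, 0.16). None of the macrophage markers was called by edgeR without replicate 3. Of 15 tested monocyte and recruited myeloid genes, 4 rose (Chil3, Arg1, Plac8 and Fn1, which fibroblasts also make), 15 of 15 were higher, and the median was 0.61. edgeR called Fn1 alone of these without replicate 3. Chil3, a chitinase-like protein of alternatively activated myeloid cells, read 16.6, 35.8 and 21.002 in controls and 90.3, 378 and 256 in Wls fl/fl, which varied more among themselves than the controls did. Arg1 (arginase 1) read 0, 9.91 and 3.62 against 43.2, 35.3 and 29.9, and Plac8 changed by 1.88. The summed monocyte genes took 0.0690 to 0.0824% of normalized reads in controls and 0.128 to 0.143% in Wls fl/fl. Fn1 made up most of that sum, with means of 3482 in controls and 6419 in Wls fl/fl. Vcan had means of 717 and 1059 and Thbs1 of 508 and 676, against 24.5 and 241 for Chil3. This share therefore does not measure monocytes apart from matrix genes.

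Neutrophil genes varied within the Wls fl/fl group. S100a8, a granule calcium-binding protein, read 11.1, 22.9 and 16.7 in controls and 28.0, 174 and 133 in Wls fl/fl, so replicate 1 lay near the controls while replicates 2 and 3 lay far above. S100a9 read 16.6, 31.3 and 36.9 against 47.7, 228 and 164. Neither passed the test (limma adjusted p = 0.0579 and 0.0530), none of 9 tested neutrophil genes was called, and their median was 1.80. Together the 18 genes of the list, tested or not, took 0.00398 to 0.00441% of reads in controls and 0.0056 to 0.0145% in Wls fl/fl. G0s2 was the largest member, with means of 152 and 151 (log2 change -0.02), against 28.3 and 146 for S100a9. In lymphoid markers, Thy1 (also on fibroblasts) and the pan-leukocyte Ptprc rose by 0.44 and 0.44, of 7 tested, and neither was called by edgeR without replicate 3.

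Secreted inflammatory genes rose in part. In the acute phase list 5 of 14 tested genes rose (Saa3, Spp1, Timp1, Chil1 and Chil3) and none fell, with a median of 0.81 over the list, and edgeR called Saa3 alone of them without replicate 3. Chemokines and cytokines had a median of 0.63, with 4 of 27 risen, of which edgeR called Ccl6 without replicate 3. Ccl6 read 227, 302 and 240 against 514, 463 and 477, Ccl9 changed by 0.71, and Cxcl1, a neutrophil attractant, read 44.3, 83.1 and 71.7 against 120, 144 and 140. Complement and coagulation genes numbered 28 tested, 6 risen and 1 fallen (Tfpi, an inhibitor of the tissue factor pathway), with a median of 0.32. Cfp (properdin) changed by 0.97, the complement regulator Cd55 by 0.61 and C4b by 0.50. For antigen presentation, the class I genes H2-K1, H2-D1 and B2m rose by 0.51, 0.40 and 0.45, the 3 calls among 19 tested, and the invariant chain Cd74 of class II had a change of 0.05. No complement or antigen presentation gene was called by edgeR without replicate 3.

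**Figure D4:**
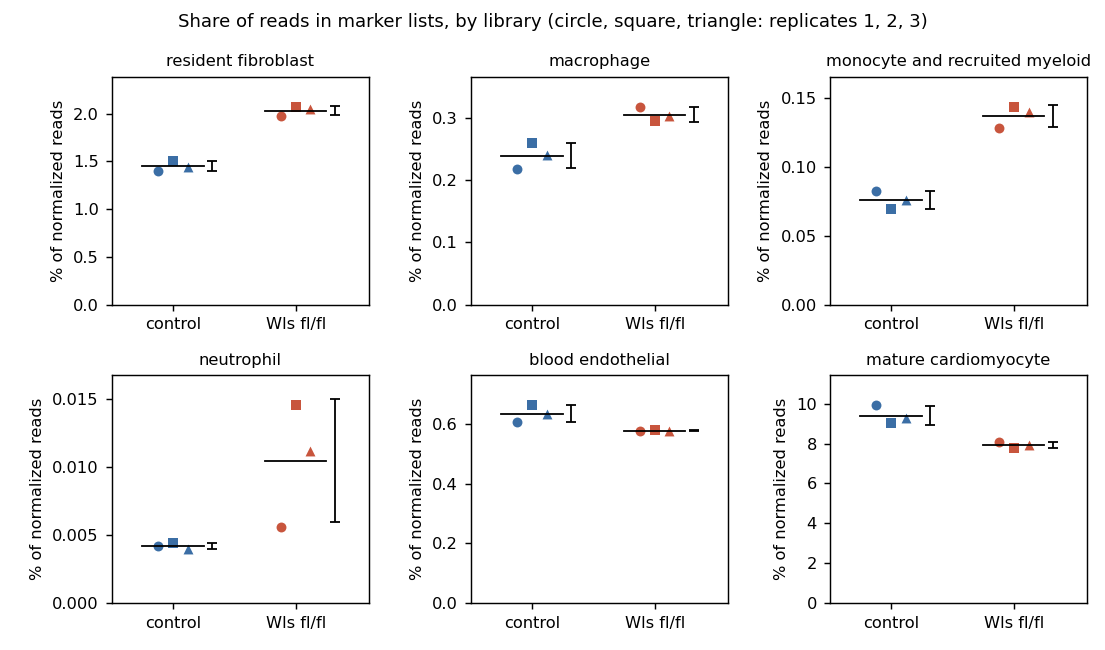
Percent of normalized reads taken by 6 cell type marker lists in each library. Circles, squares and triangles are replicates 1, 2 and 3, horizontal lines are group means and bars are 1 SD. Resident fibroblast, macrophage and monocyte shares are higher in every Wls fl/fl library, mature cardiomyocyte and endothelial shares are lower, and neutrophil shares spread most in Wls fl/fl. Fn1, which fibroblasts also make, is the largest part of the monocyte share. Col3a1, also in the collagen list, is the largest member of the resident fibroblast list, and G0s2 of the neutrophil list.

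Interferon-stimulated genes were also higher, with 9 of 38 tested risen, none fallen, 36 of 38 higher and a median of 0.43. None was called by edgeR without replicate 3, when the median by limma was 0.42. Oas2, which senses double-stranded RNA, read 33.3, 38.1 and 42.7 against 85.2, 81.8 and 99.4, a log2 change of 1.20. Ifi44 changed by 1.20 and Ifi27l2a by 0.84. Ifitm3, a membrane protein that blocks virus entry, read 427, 470 and 482 against 583, 584 and 578 (log2 change 0.34, limma adjusted p = 0.0223). Ddx58 (RIG-I, an RNA sensor) read 177, 142 and 161 against 210, 220 and 225 (log2 change 0.45, limma adjusted p = 0.0387).

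Promoters of 3 genes that rose are shown because each holds the letters of the interferon-stimulated response element, and they were picked after the matches were seen. The sequences are from RefSeq on GRCm38.p6, run from 250 bases before the start to 30 after it, are read on the minus strand, and have the match in capitals (GAAA, then any 2 bases, then GAAA, searched on both strands). Ddx58 lies at chr4:40239796-40240075, Ifitm3 at chr7:141010715-141010994 and Saa3 at chr7:46715647-46715926.
Ddx58: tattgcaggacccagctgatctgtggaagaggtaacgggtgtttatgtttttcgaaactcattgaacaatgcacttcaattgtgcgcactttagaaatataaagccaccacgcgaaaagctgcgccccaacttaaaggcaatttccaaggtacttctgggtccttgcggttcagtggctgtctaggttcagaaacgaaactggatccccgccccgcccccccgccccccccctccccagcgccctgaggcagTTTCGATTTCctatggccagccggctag
Ifitm3: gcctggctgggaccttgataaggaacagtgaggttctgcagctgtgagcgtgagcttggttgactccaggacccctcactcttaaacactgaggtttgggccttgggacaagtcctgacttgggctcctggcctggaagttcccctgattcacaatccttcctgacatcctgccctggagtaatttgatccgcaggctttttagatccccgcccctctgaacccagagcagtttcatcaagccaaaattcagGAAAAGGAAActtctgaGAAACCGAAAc
Saa3: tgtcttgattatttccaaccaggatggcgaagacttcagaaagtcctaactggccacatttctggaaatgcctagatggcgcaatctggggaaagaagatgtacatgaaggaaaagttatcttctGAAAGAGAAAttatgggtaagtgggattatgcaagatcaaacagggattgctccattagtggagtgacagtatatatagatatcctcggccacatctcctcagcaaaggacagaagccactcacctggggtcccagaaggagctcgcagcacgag
The match begins 3 bases after the start in Ddx58, on the opposite strand, and 3 and 20 bases after it in Ifitm3, where there are 2. In Saa3 it begins 125 bases before the start. In windows of 300 bases (250 before to 50 after the start), these letters were in 3.44% of 32851 promoters of the table and in 3.64% of 9583 tested genes with an entry. They were in 17 of 26 interferon-stimulated genes with an entry, in 23 of 242 genes that rose (9.50%) and in 2 of 202 that fell (0.99%). The letters TGANTCA (N is any base), a loose form of the AP-1 site of Fos and Jun proteins, were in 13.6% of risen, 9.41% of fallen and 6.08% of tested genes. A match is a description of letters and not evidence of binding.

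Cardiomyocyte genes made up most of what fell. Of 30 mature cardiomyocyte markers 21 fell and none rose, 30 of 30 were lower, and the median was -0.27 (-0.25 by limma without replicate 3, when edgeR called none). Myom2, a protein of the sarcomere M-band, read 15250, 15940 and 15943 in controls and 11248, 10108 and 10490 in Wls fl/fl, a log2 change of -0.57 (SE 0.05, limma adjusted p = 0.0014). Tnnt2 (troponin T) changed by -0.40, Tcap (a titin cap) by -0.50, and Myh6 (alpha myosin heavy chain) by -0.33, while Actc1 (cardiac actin) had a change of -0.08 and was not called. Fetal and stress genes of cardiomyocytes numbered 16 tested, of which 6 fell, with a median of -0.33, and edgeR called Nppa alone without replicate 3. Besides Nppa, Ankrd1, a stretch-responsive repeat protein, read 3127, 2420 and 2808 against 2132, 1757 and 1868, and Myh7, the fetal myosin, changed by -0.31. Of 30 calcium handling and channel genes 10 fell (none by edgeR without replicate 3) and 1, the endoplasmic reticulum chaperone Calr, rose. The calcium release channel Ryr2 changed by -0.27, the pump inhibitor Pln by -0.31 and the exchanger Slc8a1 by -0.28.

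Energy metabolism genes fell too. Of 52 nuclear oxidative phosphorylation genes 23 fell, none rose and 52 of 52 were lower, with a median of -0.21. Ndufa1, a complex I subunit, read 1236, 1031 and 1061 against 843, 798 and 806, and Cox6a2, the muscle form of a complex IV subunit, changed by -0.36. The 13 mitochondrially encoded genes had a median of -0.12 and none was called. Of 32 fatty acid oxidation genes 12 fell, among them Acadm and Acadl, acyl-CoA dehydrogenases (-0.29 and -0.29). Of 25 citric acid cycle genes 7 fell (Idh2 by 0.37), and of 23 glycolysis genes 5 fell (Pfkm by 0.21). None of these metabolic genes was called by edgeR without replicate 3, although each list's median stayed below 0 by limma.

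The direction of calls divided by the fraction in which a gene was higher. Levels were set as CPM (reads of a gene relative to all reads) over all 6 libraries of each fraction, across tables that had been scaled apart. Both genotypes enter these levels, so a gene's change itself helps to set its class, and class and change are not independent. Saa3, for one, lay in the class over 8-fold (CPM 12.6 against 0.80) with means of 20.5 in controls and 144 in Wls fl/fl. Of 4052 genes higher in cardiomyocytes, 4 rose and 262 fell, which are 262 of all 270 falls, and the median change was -0.11. Genes up to 2-fold higher in the NonCM fraction numbered 6626, of which 29 rose and 5 fell, with a median of 0.03. The share that rose was 5.74% at 2 to 4-fold, 16.1% at 4 to 8-fold and 28.9% over 8-fold, and the medians were 0.21, 0.36 and 0.41. In order from cardiomyocyte-higher to over 8-fold, edgeR without replicate 3 called 2, 0, 1, 7 and 13 genes higher and 3, 0, 0, 0 and 1 lower. Scaled to genes not higher in cardiomyocytes, the medians of the 5 classes were -0.20, -0.05, 0.13, 0.27 and 0.32. The 4 risen genes that were higher in cardiomyocytes were Esr1, Lgals4, Ndrg4 and Prkg1, named after their values were seen.

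The level of cardiomyocyte RNA moved with genotype. Its log2 summed marker value had a squared correlation of 0.967 with genotype over the 6 libraries, and no control library was as low as any Wls fl/fl library. With that level as a covariate limma called no gene higher and 1 lower, and 366 of the 598 called genes kept their sign. Genotype and the share of cardiomyocyte RNA cannot be told apart in these libraries. Among the other cell types the list medians were -0.23 (blood endothelial), 0.33 (resident fibroblast), 0.23 (macrophage) and 0.53 (monocyte) when scaled to genes not higher in cardiomyocytes.

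**Figure D5:**
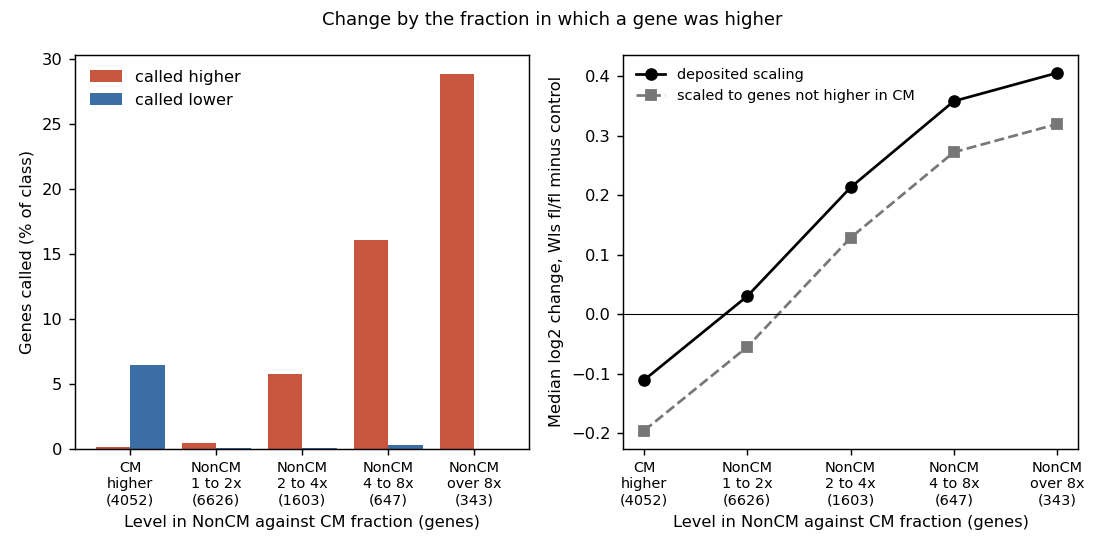
Genes grouped by their level in the NonCM fraction relative to the cardiomyocyte (CM) fraction, with the number of genes in parentheses. Levels are taken over libraries of both genotypes, so class and change share values. Bars (left) are the percent of each class called higher (red) or lower (blue) by limma, and points (right) are median log2 changes under the deposited scaling (black) and scaling to genes not higher in CM (grey). The percent called higher runs from 0.0987 in the CM-higher class to 28.9 in the class over 8-fold higher in NonCM.

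Genes of cell division were called about as often as all genes (4.51%). Of 21 tested genes of G2 and mitosis, 2 rose and none fell, with a median of 0.45. Mki67, the Ki-67 proliferation antigen, read 116, 118 and 117 in controls and 181, 166 and 179 in Wls fl/fl, with a log2 change of 0.58 (limma adjusted p = 0.0106). Top2a, a topoisomerase of dividing cells, was the other (0.56). None of 25 S phase genes was called, 15 of them were higher, and their median was 0.09. Neither Mki67 nor Top2a was called by edgeR without replicate 3.

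Immediate early genes, which also respond to tissue dissociation, differed among the Wls fl/fl libraries. Fos read 1541, 1644 and 1541 against 2130, 2913 and 2663, and Fosb read 421, 371 and 405 against 509, 879 and 768, with replicate 1 the lowest in both. Of 30 tested genes 5 rose (Fos, Fosb, Btg2, Dusp1 and Klf4) and none fell, with a median of 0.33, and edgeR called none without replicate 3. The list took 0.350 to 0.375% of normalized reads in controls and 0.412 to 0.555% in Wls fl/fl, and its part in the other changes was not tested. Among 26 genes of protein folding and secretion, the chaperones Pdia4 (0.45) and Calr (0.22) rose, neither called by edgeR without replicate 3. None of 32 ribosomal protein genes was called, and their median was -0.05.

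Wnt signalling genes were called about as often as all genes (4.51%). None of 10 tested genes for Wnt ligands and their secretion passed. Wnt5a, a noncanonical ligand, read 139, 148 and 159 in controls and 174, 184 and 160 in Wls fl/fl (log2 change 0.21, limma adjusted p = 0.267). Porcn, the acyltransferase that lipidates Wnts, read 38.8, 28.2 and 15.9 against 20.98, 34.6 and 29.1, and the groups overlapped. Of 37 receptors and noncanonical pathway genes 2 rose, the Wnt5a receptor Ror1 (166, 198 and 201 against 263, 281 and 281) and Ptk7 (155, 156 and 177 against 221, 212 and 247). The median of that list was 0.06, and -0.02 when scaled to genes not higher in cardiomyocytes. Of 6 secreted antagonists, Sfrp1 (521, 659 and 600 against 886, 861 and 857) and Frzb (122, 116 and 113 against 153, 154 and 152) rose. None of 12 beta-catenin target genes was called and their median was -0.13.

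In the TGF beta and BMP pathway 1 of 30 tested genes rose, a share near the 2.47% of all genes that did. It was the ligand Tgfb3, which read 233, 223 and 227 in controls and 309, 341 and 333 in Wls fl/fl. Tgfb1 read 227, 249 and 275 against 310, 309 and 298, groups that did not overlap, and was not called (limma adjusted p = 0.0913). Of 23 Yap and Taz targets, Myof (0.62) and Axl (0.41) rose and Ankrd1 fell by 0.53, with a median of 0.02 (-0.07 when scaled to genes not higher in cardiomyocytes). Myof is a membrane repair protein and Axl a receptor tyrosine kinase. None of these signalling genes was called by edgeR without replicate 3.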

How the data were processed

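RNA was sequenced in bulk from 12 libraries, of which the 6 of the NonCM fraction were tested. STAR, DESeq2 and mm10 are named by the submitters' processing notes, with no versions. For the annotation, the counter, strand use and trimming, nothing is given in the sources used. The authors deposited, per the file headers, normalized read counts (a signal value per gene and library), together with a log2 fold change, p-values and a score (the test statistic) from DESeq2. In the values, 100% were whole multiples of a step of each library (tolerance 0.01 reads), so that whole reads were recovered. The authors' deposited table holds 335 genes higher and 298 lower at an adjusted p under 0.05, of which limma called 496.

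From the deposited values, log2(value + 1) was tested with limma 3.58.1 in R 4.3.3 (lmFit, eBayes with trend; Wls fl/fl minus control, no covariate, Benjamini-Hochberg threshold 0.05) on genes with a mean of 10 or more. Fold changes are on this log2 scale, which can understate or overstate changes of low genes. Arg1, at 0 in control replicate 1, changed by 3.31 by limma and 2.52 by edgeR, while Plac8 changed by 1.88 and 1.96. edgeR 4.0.16 (quasi-likelihood), DESeq2 1.42.0 and limma-voom were run on recovered reads. With 3 against 3 the smallest exact two-sided permutation p is 0.1, and none was run per gene. Genes whose reads could be shared with near-identical copies, such as H2-K1 and H2-D1, or with an overlapping gene are uncertain. In the deposited symbols, 27 had become dates, 20 of them past the minimum, and were not named.

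Named by rule were Wls; the 12 largest rises and 12 largest falls by log2 change that were called, had groups apart and averaged at least 50 (gene-model symbols such as Rik and Gm not named); up to 20 genes per direction called by edgeR without replicate 3; up to 4 called members of smallest p per list; and the first 3 members of 5 lists. Other genes named were chosen after their values were seen. The genes, 45 lists, the naming rule and the alternatives were chosen with earlier results of these data known, and a list of ribosomal RNA genes, DESeq2 and limma-voom without replicate 3, and edgeR without control replicate 1 were added after the values were seen. Positions came from GENCODE M21, in which 96.4% of tested genes had 1 match, and promoters from RefSeq.

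The code was tested on simulated counts for 13140 genes of this comparison. Of 99 genes given a log2 change of 0.5, limma found 50 and edgeR 67, and of 98 given a change of 1 they found 73 and 92. False calls were 0 of 123 for limma and 8 of 167 for edgeR. Whether these rates hold where, as here, a library lies within counting noise of a mixture of the others of its genotype was not tested. With 2 libraries per group limma recovered 19 and 55, and edgeR 51 and 77.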

Additional observations from a re-analysis of the deposited data

How the results depend on the processing

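Calls by limma were 328 higher and 270 lower. Under edgeR they were 761 and 685, under limma-voom 753 and 724, and under edgeR without control replicate 1 807 and 787. Scaling to genes not higher in cardiomyocytes gave 629 lower. Leaving out 1 library in turn gave 64 to 872 higher and 9 to 749 lower. Without replicate 3 of both genotypes the counts were 0 and 0 by limma, 23 and 4 by edgeR, 43 and 12 by DESeq2 and 61 and 15 by limma-voom. Counts under TMM and upper-quartile scaling, other pseudocounts and filters and DESeq2 on all libraries stayed within 1.5 times.

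Of 136 named genes 126 were called, 40 of these kept the call whichever single library was left out, and all 126 kept their sign outside the cardiomyocyte covariate. Porcn, not called, ranged from -0.25 (control replicate 3 left out) to 0.37 (control replicate 1 left out), was -0.07 with Wls fl/fl replicate 2 left out, and was -0.29 (limma), -0.13 (edgeR) and -0.17 (limma-voom) without replicate 3 of both genotypes. With the cardiomyocyte covariate, 40 named genes changed sign, none of them past the threshold: Wls 0.47, Chil3 -4.05, Spp1 -0.0039, Cxcl1 -1.38, Ramp1 0.17, Pdgfra -0.68, Timp2 -0.14, Mmp12 -0.14, Des 0.081, Myocd 0.39, Kdr 0.12, Prox1 0.24, Ctss -0.16, Csf1r -0.063, Arg1 -2.12, Ptprc -0.18, Csrp3 0.0072, Pln 0.21, Ryr2 0.058, Cox6a2 0.0093, Ndufa1 0.29, Acadm 0.057, Etfa 0.28, Acadl 0.22, Ldhb 0.19, Pgam2 0.28, Gpi1 0.088, Idh3g 0.025, Sdha 0.17, Cfp -0.32, Top2a -0.31, Fos -0.62, Fosb -0.95, Btg2 -1.03, Dusp1 -0.34, Porcn -0.34, Wnt5a -0.11, Ror1 -0.24, Ankrd1 0.83, Axl -0.16. The cause of these reversals was not tested, and that covariate nearly coincides with genotype.

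No paired analysis was possible because the replicate numbers were given in accession order and tie no library of one genotype to a library of the other. Depth limits low genes most, since 1 read in control replicate 1 equals 5.54 units.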

Other observations

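Nerve-associated and blood genes lay outside the comparisons above. None of 10 tested Schwann and neural genes was called, although 10 of 10 were higher in Wls fl/fl, with a median log2 change of 0.38. None of 8 red blood cell genes and none of 4 adipocyte genes was called. Red blood cell genes took 0.0365 to 0.0712% of normalized reads in controls and 0.0319 to 0.0822% in Wls fl/fl, so those groups overlapped.

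Lars2 and Mir6236, loci that collect reads of ribosomal RNA, rose as well. Lars2 read 510, 492 and 345 in controls and 1242, 798 and 679 in Wls fl/fl, and Mir6236 read 122, 69.4 and 53.6 against 303, 176 and 176, each highest in Wls fl/fl replicate 1. The mitochondrial ribosomal RNA mt-Rnr2 read 5616, 4477 and 5192 against 8575, 9253 and 4669, with Wls fl/fl replicate 3 among the controls. It was called by edgeR without replicate 3 (adjusted p = 0.0452) and not by limma on all libraries (adjusted p = 0.253). In total, 6 ribosomal RNA and related genes took 3.21 to 3.43% of normalized reads in controls and 3.69 to 3.76% in Wls fl/fl.

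The percent of genes called differed by level. Of 1365 genes with mean values from 10 to 20, 0.586% rose and 0.0733% fell. Of 2135 genes from 20 to 50, 0.422% rose and 0.0468% fell, and of 193 genes with means over 3000, 14.5% rose and 31.1% fell.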
